A study of Mus musculus with 16 samples.

Results

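Krüppel-like factors (Klf) are zinc-finger transcription factors that share a DNA-binding domain with the Sp family and recognise the same kind of element, the GC box and the related CACCC box, which Sp1 also binds. 10 members other than the erythroid factor Klf1 were chosen by name (Klf2, Klf3, Klf4, Klf5, Klf6, Klf7, Klf9, Klf10, Klf12 and Klf13), and all 10 were among the 37149 genes tested on the arrays. The list names genes and sets no threshold on their values. Klf2, Klf4 and Klf6 are known as transcription factors of endothelium, and Klf2, Klf4 and Klf5 as part of the self-renewal circuit of embryonic stem (ES) cells. Klf3 and Klf12 are known as repressors that recruit the corepressor CtBP, and Klf9, Klf10 and Klf13 as factors that recruit the corepressor Sin3A. Because all of them can read GC boxes, it was asked where each is expressed on the way from mesoderm to blood and whether any of them was higher where Sp1 had lost its DNA-binding activity.

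Mouse ES cells were differentiated in culture, and 4 successive populations were purified. Flk1+ cells, a mesodermal population that holds the hemangioblast, were taken from embryoid bodies with an antibody to Flk1. Further culture of these cells gave hemogenic endothelium 1 (HE1; KIT+ Tie2+ CD41-), hemogenic endothelium 2 (HE2; KIT+ Tie2+ CD41+) and hematopoietic progenitors (KIT+ Tie2- CD41+), which were sorted by flow cytometry. Each population was obtained from Sp1+/+ cells and from Sp1-/- cells, whose mutant alleles encode a shortened Sp1 that lacks the zinc fingers for binding DNA, and the labels give the strain of both as C57BL/6, although the sample titles call the Sp1+/+ cells E14. Sp1-/- cells were 1 mutant line, so that an effect of the line and an effect of Sp1 cannot be told apart. Each of the 8 groups was represented by 2 one-color arrays. The design text calls these independent, but a legend of the study speaks of technical replicates, and the p-values may therefore cover only technical spread. Each slide carried the arrays of 1 genotype only, so that slide and genotype cannot be told apart, whereas steps between populations were compared within a slide. The step from Flk1+ cells to HE1 also changed the culture and the way of isolation, from magnetic columns to flow sorting. An effect of these and an effect of the population cannot be told apart.

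Values are the deposited log2 intensities, and each member had 1 probe. It was well above background on all 16 arrays. A log2 difference of 1 is a 2-fold change. A gene was called where limma, fitted to all genes and all 16 arrays, gave a change of 2-fold or more together with a p, before adjustment, of at most 0.01, the thresholds of the methods. The adjusted p (Benjamini-Hochberg over all genes) is given beside it, and a weaker criterion, an adjusted p of 0.05 or less with no minimum change, is named where it is used. Shares of all genes are given beside the counts of members. The intensity minimum kept 55595 of 55681 probes, so these shares include genes near background, unlike the members. A share among genes well above background is not given. On these bulk arrays, a lower level per cell and fewer expressing cells cannot be told apart.

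The Sp1 probe, read first as a check of the genotypes, gave 12.53 and 12.56 in Sp1+/+ Flk1+ cells against 10.29 and 10.25 in Sp1-/- Flk1+ cells. Sp1 was lower 4.84-fold in Flk1+ cells, 9.71-fold in HE1, 5.9-fold in HE2 and 7.44-fold in progenitors, called in all 4 (limma adjusted p at most 5.98e-05). Markers of the populations were read next. Mesp1, T and Pdgfra, genes of early mesoderm, fell from Flk1+ cells to HE1 in both genotypes. Kdr, which encodes Flk1 and was also listed for mesoderm, was called in neither genotype. Its mean was higher in HE1 than in Flk1+ cells of Sp1-/- origin. All 6 hemogenic endothelium markers rose at that step (Kit, Tek, Cdh5, Pecam1, Emcn and Sox17). Itga2b, which encodes CD41, rose both there and from HE1 to HE2. Runx1, listed with Itga2b, fell from Flk1+ cells to HE1 in Sp1+/+ cells. The progenitors of the 2 genotypes differed in markers of other cells. The summed linear intensity of 7 muscle and mesenchyme markers was 133000 to 185000 in Sp1+/+ progenitors and 11900 to 13000 in Sp1-/- progenitors, that of 4 epithelial markers 47900 to 60700 against 4680 to 4720, and that of 8 erythroid markers 288000 to 657000 against 1150000 to 1220000.

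**Figure D1:**
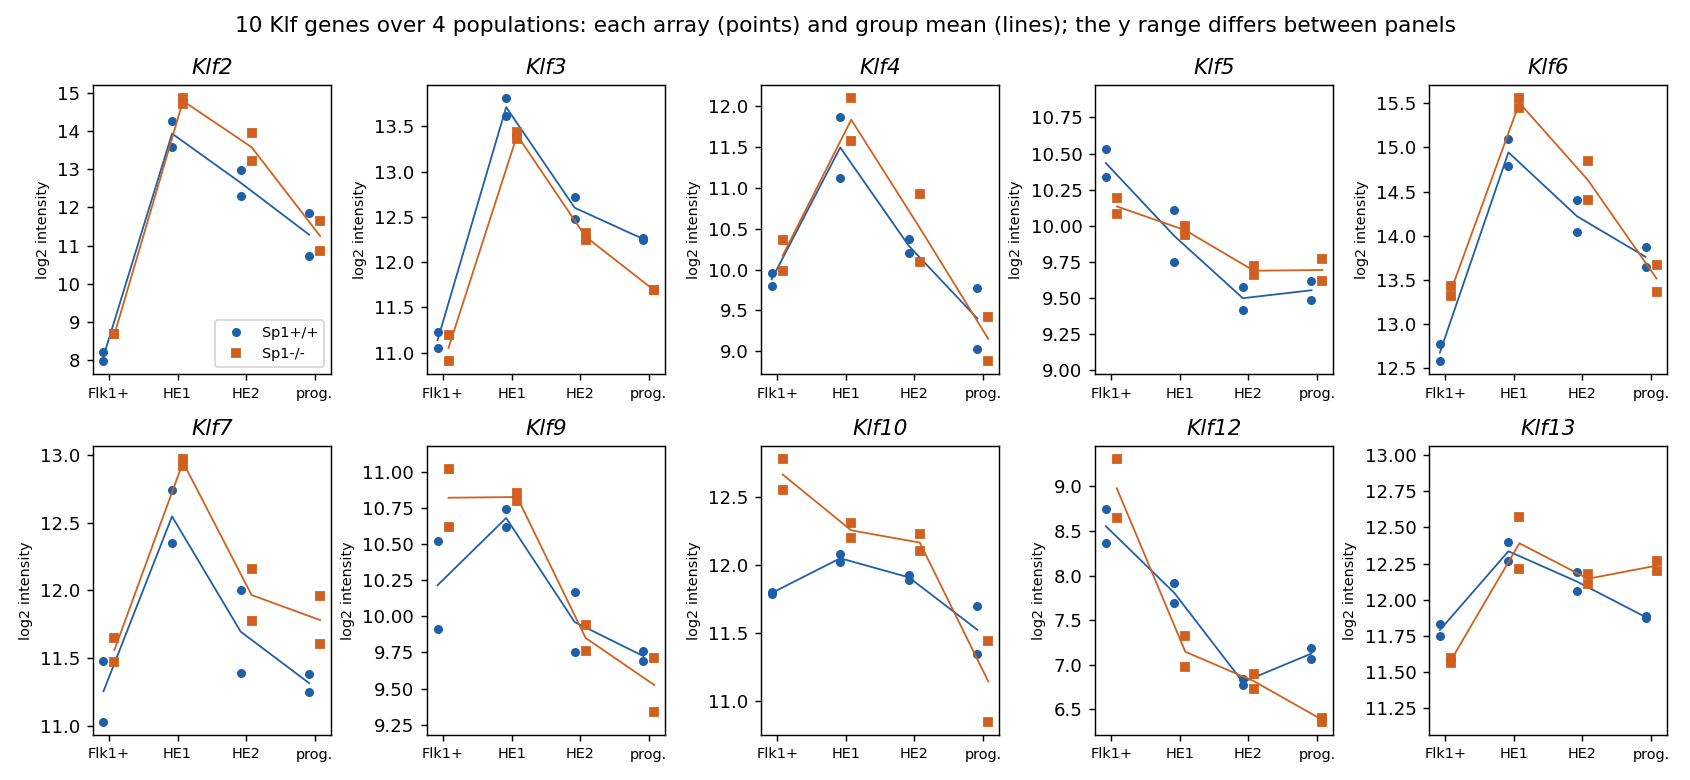
Deposited log2 intensity (y axis, its range differing between panels) of the 10 Klf genes in Flk1+ cells, HE1, HE2 and progenitors (prog., x axis). Circles are Sp1+/+ arrays, squares Sp1-/- arrays and lines join group means (n = 2): Klf2, Klf3, Klf4, Klf6 and Klf7 peaked in HE1 in both genotypes, and Klf12 was highest in Flk1+ cells.

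The step from Flk1+ cells to HE1 was marked by a joint rise of 5 Klf genes, Klf2, Klf3, Klf4, Klf6 and Klf7, in Sp1+/+ cells and again in Sp1-/- cells. In Sp1+/+ cells 5 of 10 members were called, all upward, where 8.55% of all genes were called, 4.66% upward and 3.89% downward. Of the Sp1-/- values 5 rose and 1, Klf12, fell, where 9.50% of all genes were called, 4.62% upward and 4.87% downward. The median change of the 10 members was 0.92 in Sp1+/+ and 1.1 in Sp1-/- cells, and that of all genes was -0.01 in both. By an adjusted p of 0.05 or less, 8 members differed in Sp1+/+ cells and 7 in Sp1-/- cells, where 24.8% and 28.6% of all genes did.

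Klf2, a transcription factor of quiescent endothelium that is induced by flow, had the steepest rise of the 10 members. Its 2 Sp1+/+ arrays read 7.98 and 8.22 in Flk1+ cells and 14.27 and 13.59 in HE1, and its Sp1-/- arrays read 8.68 and 8.68 and then 14.71 and 14.86. All HE1 arrays were far above all Flk1+ arrays. The change was 5.83 ± 0.40 (SE) in Sp1+/+ cells, or 56.9-fold (adjusted p = 2.01e-06 by limma), and 6.11 ± 0.40 in Sp1-/- cells, or 68.8-fold (adjusted p = 1.40e-06 by limma). Genes known as endothelial targets of Klf2, listed without regard to whether Klf2 raises or lowers them, were examined beside it. 5 of 6 rose at this step in each genotype, namely Nos3 (endothelial nitric oxide synthase), Thbd (thrombomodulin), S1pr1 (the sphingosine-1-phosphate receptor), Edn1 (endothelin 1) and Vcam1 (an adhesion molecule). Nos3 rose 12.4-fold in Sp1+/+ and 13.9-fold in Sp1-/- cells, and Thbd 24.5-fold and 17.3-fold. Sele (E-selectin), the remaining one, changed by less than the call needs.

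Klf6, an activator known for its role in yolk sac hematopoiesis and vessel repair, read 12.77 and 12.58 in Sp1+/+ Flk1+ cells and 15.10 and 14.79 in Sp1+/+ HE1. The Sp1-/- arrays read 13.32 and 13.43 and then 15.45 and 15.56. It rose by 2.27 ± 0.18 (adjusted p = 5.45e-06 by limma) and by 2.13 ± 0.18 (adjusted p = 7.34e-06 by limma), with no overlap between the populations. Klf3, the CtBP-dependent repressor, read 11.05 and 11.23 in Sp1+/+ Flk1+ cells and 13.81 and 13.61 in HE1, and 11.20 and 10.91 and then 13.36 and 13.44 in Sp1-/- cells. Its rise was 5.94-fold in Sp1+/+ and 5.08-fold in Sp1-/- cells (adjusted p = 1.42e-07 and 2.39e-07 by limma). The replicates of Klf3 lay within 0.29 of each other on the log2 scale in these 4 groups.

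Klf4, a pluripotency factor that is also expressed in endothelium, read 9.96 and 9.80 in Sp1+/+ Flk1+ cells and 11.87 and 11.12 in HE1. The Sp1-/- arrays read 9.98 and 10.36 and then 12.10 and 11.57. The change was 1.61 ± 0.35 in Sp1+/+ and 1.67 ± 0.35 in Sp1-/- cells (adjusted p = 0.00516 and 0.00389 by limma), and without replicate 1 of Sp1+/+ HE1 the first was 1.24 and no longer called. Klf7, a factor studied in neurons and in hematopoietic stem cells, read 11.03 and 11.48 in Sp1+/+ Flk1+ cells and 12.35 and 12.74 in HE1, and 11.65 and 11.47 and then 12.97 and 12.92 in Sp1-/- cells. It rose 2.45-fold and 2.61-fold (adjusted p = 0.00148 and 8.26e-04 by limma). For both genes every HE1 array was above every Flk1+ array of the same genotype.

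Klf12, the other CtBP-dependent repressor, moved the opposite way. Its probe read 8.75 and 8.36 in Sp1+/+ Flk1+ cells and 7.69 and 7.92 in HE1, and 8.65 and 9.31 and then 7.32 and 6.97 in Sp1-/- cells. The difference was -0.75 ± 0.20 in Sp1+/+ cells (adjusted p = 0.0184 by limma), under 2-fold and so not called, and -1.84 ± 0.20 in Sp1-/- cells, a 3.57-fold fall (adjusted p = 4.79e-05 by limma). The probe was dim, with values of 6.36 to 9.31 where the lowest deposited value on any array was 5.65. When the array's processed signal was scaled to its 75th percentile instead, the Sp1+/+ difference became -1.07 and was called.

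Of the remaining 4 members none was called at this step. Klf13 was higher in HE1 by 0.55 ± 0.11 in Sp1+/+ and by 0.81 ± 0.11 in Sp1-/- cells (adjusted p = 0.00378 and 2.38e-04 by limma), and Klf5, an activator of ES cell self-renewal, was lower by 0.51 ± 0.13 in Sp1+/+ cells (adjusted p = 0.0113 by limma). Klf5 differed by -0.17 ± 0.13 in Sp1-/- cells. Klf9 differed by 0.47 ± 0.21 and 0.01 ± 0.21, and Klf10 by 0.26 ± 0.17 and -0.41 ± 0.17, in Sp1+/+ and Sp1-/- cells respectively. Among 9 partners of Klf2, Klf4 and Klf5 in the pluripotency circuit, 4 fell in Sp1+/+ cells (Pou5f1, Prdm14, Tbx3 and Zfp42). None was called upward there, although 2 had a higher mean. For Sp1-/- cells 6 fell (the same 4, Esrrb and Sox2) and 1 rose, Nanog. Klf2 and Klf4 rose in both genotypes. Of 12 Klf cofactors, Kat2b, a histone acetyltransferase, and Sin3b, a corepressor scaffold, rose in Sp1+/+ cells and none was called in Sp1-/- cells. Sin3b differed there by 0.88 and Kat2b by 0.35, and the interaction of genotype and population had an adjusted p of 0.17 and 0.156 by limma.

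HE1 differed from Flk1+ cells in other markers too. The summed muscle and mesenchyme markers read 6560 to 9120 in Sp1+/+ Flk1+ cells and 204000 to 315000 in Sp1+/+ HE1, and 10200 to 10900 and then 247000 to 389000 in Sp1-/- cells. Of the 7 markers 5 were called upward and 1 downward at this step in each genotype. Their part in the rise of the Klf genes was not tested.

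To set these patterns beside the elements the factors share with Sp1, the 250 bases before the transcription start were read from the RefSeq promoter table (GRCm38.p6), which matched 8 of 10 members (not Klf5 and Klf10). The GC box was searched as GGGCGG and the CACCC box as CACCC, each on both strands, counting overlapping matches. 6 of the 8 held at least 1 GC box and 6 of the 8 at least 1 CACCC box, against 32.7% and 52.0% of 32851 promoters of that length. Among the 5 genes that rose, Klf3 held 6 GC boxes, Klf4 held 4, Klf2 held 2, and Klf6 and Klf7 held 1 each. Klf13 held 3. Klf12, which fell, and Klf9 held none, and the GC content was 48.0% for Klf12 and 78.4% for Klf3 (median of all promoters 52.4%). The promoters of Klf2 (chr8:72318812-72319061, + strand), Klf3 (chr5:64803271-64803520, + strand), Klf4 (chr4:55532476-55532725, - strand) and Klf12 (chr14:100149797-100150046, - strand) are printed because they span this range, 3 genes that rose and 1 that fell. They read 5′ to 3′ on the gene's strand and end at the base before the start, with GGGCGG and its reverse complement in capitals.
Klf2: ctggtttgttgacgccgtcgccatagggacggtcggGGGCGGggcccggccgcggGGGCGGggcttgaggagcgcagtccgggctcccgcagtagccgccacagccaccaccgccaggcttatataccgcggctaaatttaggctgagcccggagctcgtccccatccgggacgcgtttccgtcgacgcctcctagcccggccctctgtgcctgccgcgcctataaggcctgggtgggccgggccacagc
Klf3: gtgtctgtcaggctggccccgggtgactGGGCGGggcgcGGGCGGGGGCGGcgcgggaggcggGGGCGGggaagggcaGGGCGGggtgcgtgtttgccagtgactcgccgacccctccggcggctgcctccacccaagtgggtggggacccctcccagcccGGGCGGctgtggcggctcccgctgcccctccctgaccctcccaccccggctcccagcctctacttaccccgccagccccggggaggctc
Klf4: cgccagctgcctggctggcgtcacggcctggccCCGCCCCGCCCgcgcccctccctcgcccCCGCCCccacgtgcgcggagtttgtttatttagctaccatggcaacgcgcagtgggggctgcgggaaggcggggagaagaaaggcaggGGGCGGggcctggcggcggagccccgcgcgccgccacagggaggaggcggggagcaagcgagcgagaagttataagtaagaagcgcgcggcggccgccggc
Klf12: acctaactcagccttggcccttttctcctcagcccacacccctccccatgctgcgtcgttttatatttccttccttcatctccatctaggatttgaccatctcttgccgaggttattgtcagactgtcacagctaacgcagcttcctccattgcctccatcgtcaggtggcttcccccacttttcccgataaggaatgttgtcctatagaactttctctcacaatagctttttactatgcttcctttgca
Such a match describes letters and not a bound site, and 1 of the GC boxes of Klf3 shared bases with a CACCC match.

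From HE1 to HE2, where CD41 appears on the cells, every one of the 10 members had a lower mean in both genotypes. The median change was -0.79 in Sp1+/+ and -0.93 in Sp1-/- cells, against 0.015 and 0.01 over all genes. In Sp1+/+ cells 4 of 10 members fell, Klf2, Klf3, Klf4 and Klf12, where 3.31% of all genes were called and 2.23% downward. 2 fell in Sp1-/- cells, Klf3 and Klf4, where 5.60% of all genes were called and 3.52% downward. By an adjusted p of 0.05 or less, 4 members differed in Sp1+/+ cells and 5 in Sp1-/- cells, where 10.7% and 18.6% of all genes did.

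Klf3 read 13.81 and 13.61 in Sp1+/+ HE1 and 12.48 and 12.72 in HE2, and 13.36 and 13.44 and then 12.32 and 12.24 in Sp1-/- cells. It fell by 1.11 ± 0.12 in Sp1+/+ cells and by 1.12 ± 0.12 in Sp1-/- cells (adjusted p = 3.96e-04 and 1.34e-04 by limma), with HE2 below HE1 on every array. With the processed signal scaled to its 75th percentile the 2 values became -0.999 and -0.81, both short of 2-fold, and of the 4 members only Klf12 was then called in Sp1+/+ cells, at -1.80, while Klf9 was called beside Klf4 in Sp1-/- cells, at -1.04. Klf4 read 10.20 and 10.38 in Sp1+/+ HE2, below both HE1 arrays, and 10.93 and 10.09 in Sp1-/- HE2. Its change was -1.21 ± 0.35 and -1.33 ± 0.35 (adjusted p = 0.0518 and 0.0219 by limma).

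Klf2 read 12.30 and 12.99 in Sp1+/+ HE2 and 13.94 and 13.21 in Sp1-/- HE2. The change from HE1 was -1.29 ± 0.40 in Sp1+/+ cells (unadjusted 0.00878, adjusted p = 0.0709 by limma) and -1.21 ± 0.40 in Sp1-/- cells (unadjusted 0.0122, adjusted p = 0.0614 by limma), so that values of nearly the same size lay on either side of the threshold. Klf12 fell in Sp1+/+ cells by 1.00 ± 0.20, exactly at 2-fold (adjusted p = 0.00955 by limma), to 6.77 and 6.84, and differed by -0.33 ± 0.20 in Sp1-/- cells, where its arrays read 6.73 and 6.90. The HE2 levels of Klf12 in the 2 genotypes overlapped.

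Klf6, Klf7 and Klf9 were also lower in HE2, by under 2-fold. In Sp1-/- cells the differences were -0.88, -0.98 and -0.98 with adjusted p of 0.00608, 0.0119 and 0.0082 by limma, and in Sp1+/+ cells -0.73, -0.85 and -0.72 with adjusted p of 0.0262, 0.0378 and 0.056. Klf5, Klf10 and Klf13 differed by -0.43 to -0.09 and were not called in either genotype. Of the 6 Klf2 targets, 4 fell in Sp1+/+ cells (Edn1, Nos3, S1pr1 and Thbd), Nos3 11-fold. 4 fell in Sp1-/- cells as well (Edn1, Nos3, Thbd and Vcam1), Nos3 22.9-fold. The number of members called depended on single HE2 arrays. It was 0 in place of 4 without replicate 1 of Sp1+/+ HE2, and in Sp1-/- cells it was 6 without replicate 1 of HE2 and 1 without replicate 2 of HE2. The call of Klf2 in Sp1+/+ cells was also lost without either Flk1+ array of either genotype, which add only to the shared spread, and without replicate 1 of Sp1+/+ HE1 Klf2 and Klf4 were at -0.94 and -0.83 and not called. Without replicate 2 of Sp1+/+ HE1 Klf12 was at -0.89, and without replicate 1 of Sp1-/- HE1 the Sp1-/- change of Klf4 was -1.06, neither called.

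**Figure D2:**
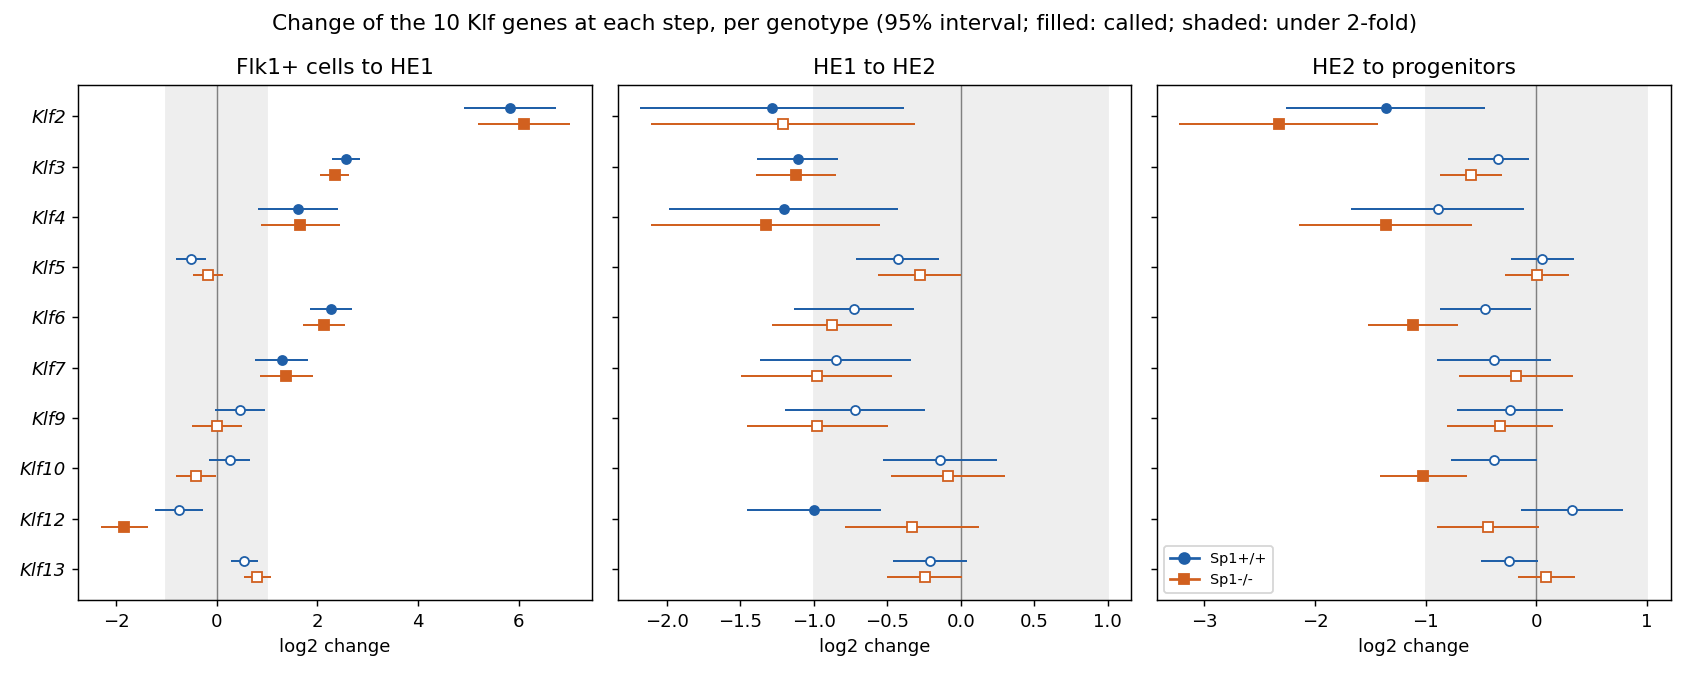
Log2 change (x axis) of the 10 Klf genes at each of the 3 steps, with Sp1+/+ as circles and Sp1-/- as squares; bars are 95% intervals from limma, filled symbols are called, and the grey band is under 2-fold. 5 genes lie right of the band from Flk1+ cells to HE1 in both genotypes, and all 10 lie left of 0 from HE1 to HE2.

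From HE2 to progenitors the decline went on for Klf2, which was called in both genotypes, and 3 further members fell 2-fold or more in Sp1-/- cells. In Sp1+/+ cells 1 of 10 members fell, where 1.74% of all genes were called. 4 fell in Sp1-/- cells, Klf2, Klf4, Klf6 and Klf10, where 4.99% of all genes were called and 2.66% downward. Downward calls in Sp1+/+ cells were 0.729% of all genes. By an adjusted p of 0.05 or less no member differed in Sp1+/+ cells and 5 did in Sp1-/- cells, where 3.04% and 15.4% of all genes did, and 5 members in each genotype had an unadjusted p under 0.05 by limma, where 14.8% and 28.2% of all genes did. The 5 in Sp1-/- cells were the 4 called and Klf3, which was lower by 0.59 ± 0.12 (adjusted p = 0.00778 by limma). No member was called upward in either genotype, although 2 had a higher mean in each. Klf12 differed by 0.32 ± 0.20 in Sp1+/+ cells and by -0.435 ± 0.20 in Sp1-/- cells.

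Klf2 read 11.85 and 10.72 in Sp1+/+ progenitors and 11.65 and 10.85 in Sp1-/- progenitors, so that the replicates lay far apart. It fell by 1.36 ± 0.40 in Sp1+/+ cells (unadjusted 0.00632, adjusted p = 0.117 by limma) and 5.01-fold in Sp1-/- cells (adjusted p = 0.00289 by limma). Even so, every progenitor array was above the Flk1+ arrays, which read 7.98 to 8.68. Without replicate 2 of Sp1+/+ progenitors the Sp1+/+ change was -0.80, and neither then nor without replicate 2 of Sp1+/+ HE2 was any member called in Sp1+/+ cells.

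Klf4 read 9.77 and 9.03 in Sp1+/+ progenitors and 9.42 and 8.88 in Sp1-/- progenitors. In Sp1-/- cells it fell by 1.36 ± 0.35 (adjusted p = 0.024 by limma), and in Sp1+/+ cells it differed by -0.89 ± 0.35. Klf6 read 13.87 and 13.65, and 13.67 and 13.36, in the same groups. The Sp1-/- fall of Klf6 was 2.17-fold (adjusted p = 0.00196 by limma), where the Sp1+/+ difference was -0.46 ± 0.18. The interaction of genotype and population had an adjusted p of 0.846 for Klf4 and 0.164 for Klf6 by limma. A difference between genotypes at this step alone was not tested.

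Klf10, known as TGF-beta-inducible early gene 1, read 11.89 and 11.93 in Sp1+/+ HE2 and, lower on both arrays, 11.70 and 11.35 in Sp1+/+ progenitors, a difference of -0.39 ± 0.17 that was not called. The Sp1-/- arrays read 12.23 and 12.10 and then 11.44 and 10.85, a fall of 2.03-fold (adjusted p = 0.0025 by limma). With the processed signal scaled to its 75th percentile the Sp1-/- difference of Klf10 was -0.94 and not called, and Klf12 was called in its place at -1.15. Among TGF-beta targets set beside Klf10, Id1, Id3, Smad6 and Tgif1 fell at this step in Sp1-/- cells, and Id3 and Smad6 fell in Sp1+/+ cells. Without replicate 1 of Sp1-/- HE2, or without replicate 2 of Sp1-/- progenitors, only 1 member, Klf2, was called in Sp1-/- cells. At this step the summed muscle and mesenchyme markers read 70700 to 115000 in Sp1-/- HE2 and 11900 to 13000 in Sp1-/- progenitors, and 66100 to 160000 and then 133000 to 185000 in Sp1+/+ cells; their part in the fall of the Klf genes was not tested.

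Klf5, Klf9 and Klf13 had the narrowest ranges of the 10 members. Over all 16 arrays Klf5 ranged from 9.42 to 10.53, Klf9 from 9.34 to 11.02 and Klf13 from 11.56 to 12.57. The Sp1+/+ group means of Klf5 and Klf9 were lowest in HE2 and progenitors, and Klf13 was lowest in Flk1+ cells in both genotypes. For Klf9 in Sp1+/+ cells HE2, at 9.75 and 10.17, overlapped progenitors, at 9.76 and 9.69, whereas HE1, at 10.62 and 10.74, was above both Flk1+ arrays, at 10.52 and 9.91.

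Whether any of these factors was higher where Sp1 had lost its DNA-binding activity was then compared in each population. No member was called in any population or in the mean over the 4 populations. The share of all genes called was 1.65% for Flk1+ cells, 2.11% for HE1, 1.94% for HE2, 4.11% for progenitors and 1.29% for that mean. An unadjusted p under 0.05 by limma was found for 4 members in Flk1+ cells, for 3 in each later population and for 6 in the mean, where 20.1% of all genes did so for Flk1+ cells, 24.3% for HE1, 17.8% for HE2, 25.5% for progenitors and 36.3% for the mean. Those with an adjusted p of 0.05 or less in a population were Klf10 and Klf6 in Flk1+ cells, both higher, and Klf3 and Klf12 in progenitors, both lower. That is 2 of 10 members in Flk1+ cells, where 6.98% of all genes passed the same criterion, 0 of 10 in HE1 and in HE2 (9.84% and 5.68%), and 2 of 10 in progenitors (13.1%).

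**Figure D3:**
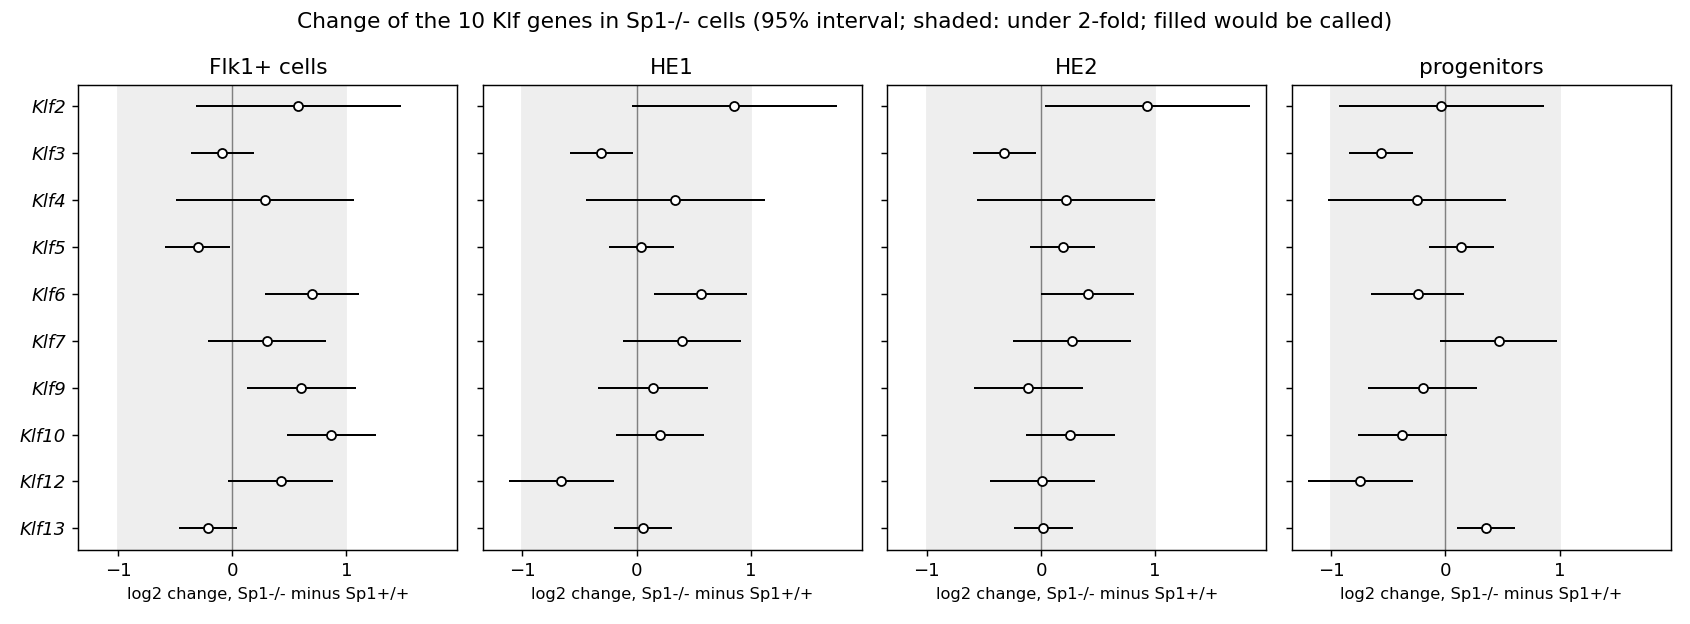
Log2 change in Sp1-/- against Sp1+/+ cells (x axis) of the 10 Klf genes in each population; points are fitted changes, bars 95% intervals from limma (2 arrays a group), and the grey band is under 2-fold. All 40 points lie inside the band, and 8 intervals reach past it on the right and 3 on the left.

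In Flk1+ cells Klf10 read 11.80 and 11.79 in Sp1+/+ and 12.55 and 12.78 in Sp1-/- cells. The Sp1-/- arrays were higher without overlap, by 0.87 ± 0.17 or 1.83-fold (adjusted p = 0.0124 by limma). The adjusted p rose to at most 0.0944 over the alternatives, and it passed 0.05 without replicate 2 of either Flk1+ group and with the processed signal. Klf6 read 12.77 and 12.58 against 13.32 and 13.43, higher by 0.70 ± 0.18 or 1.62-fold (adjusted p = 0.0425 by limma). For Klf6 the adjusted p stayed at 0.05 or less in 14 of 24 alternatives and was above it, among others, without any 1 of the 4 Flk1+ arrays.

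Klf2, Klf6 and Klf10 shared a further feature. Both Sp1-/- arrays were above both Sp1+/+ arrays in Flk1+ cells, in HE1 and in HE2, a pattern that 6.59% of all genes showed, and overlapped in progenitors. Klf2 was higher by 0.58, 0.86 and 0.93 (each ± 0.40) in Flk1+ cells, HE1 and HE2 and differed by -0.04 in progenitors, with adjusted p of 0.225 or more by limma in each. Klf6 was higher by 0.56 in HE1 and 0.41 in HE2 (each ± 0.18), with adjusted p of 0.0796 and 0.266. Values that do not overlap were common here, at 51.6% of all genes for Flk1+ cells, 45.0% for HE1, 45.4% for HE2 and 62.5% for progenitors.

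In progenitors 7 of 10 members had a lower mean in Sp1-/- cells, where 3 had a lower mean in Flk1+ cells, 2 in HE1 and 2 in HE2. Klf3 read 12.27 and 12.24 in Sp1+/+ and 11.69 and 11.69 in Sp1-/- progenitors, lower by 0.57 ± 0.12 or 1.48-fold (adjusted p = 0.0104 by limma). Its Sp1-/- arrays were below its Sp1+/+ arrays in HE1 and HE2 as well, a pattern in 3 populations that 8.22% of all genes showed. The adjusted p for progenitors was above 0.05 without replicate 1 of Sp1+/+ progenitors and without either Sp1-/- progenitor array, at most 0.0789, while the difference itself stayed between -0.58 and -0.54 in every alternative.

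Klf12 read 7.06 and 7.19 in Sp1+/+ and 6.36 and 6.40 in Sp1-/- progenitors, lower by 0.75 ± 0.20 (adjusted p = 0.0344 by limma). How far below depended on the processing of this dim probe. With the smaller background offset of 16 named in the methods, and with the processed signal scaled to its 75th percentile, where it was -1.62, the difference passed 2-fold and the gene was called. Without any 1 of the 4 progenitor arrays the adjusted p was above 0.05. Klf13 read 11.89 and 11.87 against 12.27 and 12.20, higher by 0.36 ± 0.11 (adjusted p = 0.0638 by limma), and Klf7 was higher by 0.47 ± 0.23 (adjusted p = 0.238 by limma). The muscle, epithelial and erythroid markers of the 2 progenitor groups differed as given above. The summed hemogenic endothelium markers were also lower in Sp1-/- progenitors, at 4880 to 6240 against 11400 to 17200 (Kit and Cdh5 called). The summed macrophage markers were higher, at 11200 to 11800 against 3630 to 5790. Of the 3 macrophage markers tested only Csf1r, which was called, had a higher mean, and their median change was -0.13. The part of these cells in the values of Klf3, Klf12 and Klf13 was not tested.

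Averaged over the 4 populations, Klf3 was lower by 0.32 ± 0.06 in Sp1-/- cells (adjusted p = 0.00263 by limma), and Klf6 and Klf7 were each higher by 0.36, ± 0.09 and ± 0.11 (adjusted p = 0.0136 and 0.0394 by limma). These are 3 of 10 members, where 26.2% of all genes had an adjusted p of 0.05 or less. Klf3 kept an adjusted p of at most 0.00826 in 23 of 23 alternatives, Klf6 in 22 of 23 kept one of 0.05 or less, and Klf7 in 11 of 23. The sign of Klf5, Klf9 and Klf13 in this mean turned with the processed signal.

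The size of a rise that these arrays leave possible is given by the 95% intervals. A 2-fold rise in Sp1-/- cells lay within the interval for 5 members in Flk1+ cells (Klf2, Klf4, Klf6, Klf9 and Klf10), for Klf2 and Klf4 in HE1, for Klf2 in HE2 and for no member in progenitors. The highest upper bound was 1.82 for Klf2 in HE2. For Klf5 the interval stayed within -0.58 and 0.47 in all 4 populations, and for Klf13 within -0.46 and 0.60.

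A difference between populations in the effect of genotype was tested as an interaction over all 16 arrays. 2 of 10 members had an unadjusted p of 0.01 or less, Klf10 (unadjusted 0.00304, adjusted p = 0.0624 by limma) and Klf12 (unadjusted 0.00533, adjusted p = 0.0868 by limma), where 8.10% of all genes did. Neither passed an adjusted p of 0.05, which 4.18% of all genes did, and over the alternatives the adjusted p ranged from 0.0189 to 0.319 for Klf10 and from 0.0281 to 0.221 for Klf12. For Klf10 the Sp1-/- difference was 0.87 (Flk1+), 0.21 (HE1), 0.26 (HE2) and -0.38 (progenitors), and for Klf12 it was 0.43, -0.66, 0.01 and -0.75. The means of both genes went from above Sp1+/+ in Flk1+ cells to below it in progenitors, as did those of Klf2, Klf4, Klf6 and Klf9. The arrays of the genotypes overlapped for Klf12 in Flk1+ cells and for Klf10 in progenitors. Without replicate 2 of Sp1+/+ Flk1+ cells, or without replicate 1 of Sp1+/+ progenitors, no member had an unadjusted p of 0.01 or less. Only 1 did without replicate 1 of Sp1+/+ Flk1+ cells, replicate 2 of Sp1+/+ HE1, of Sp1+/+ progenitors or of Sp1-/- Flk1+ cells, or either Sp1-/- progenitor array.

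**Figure D4:**
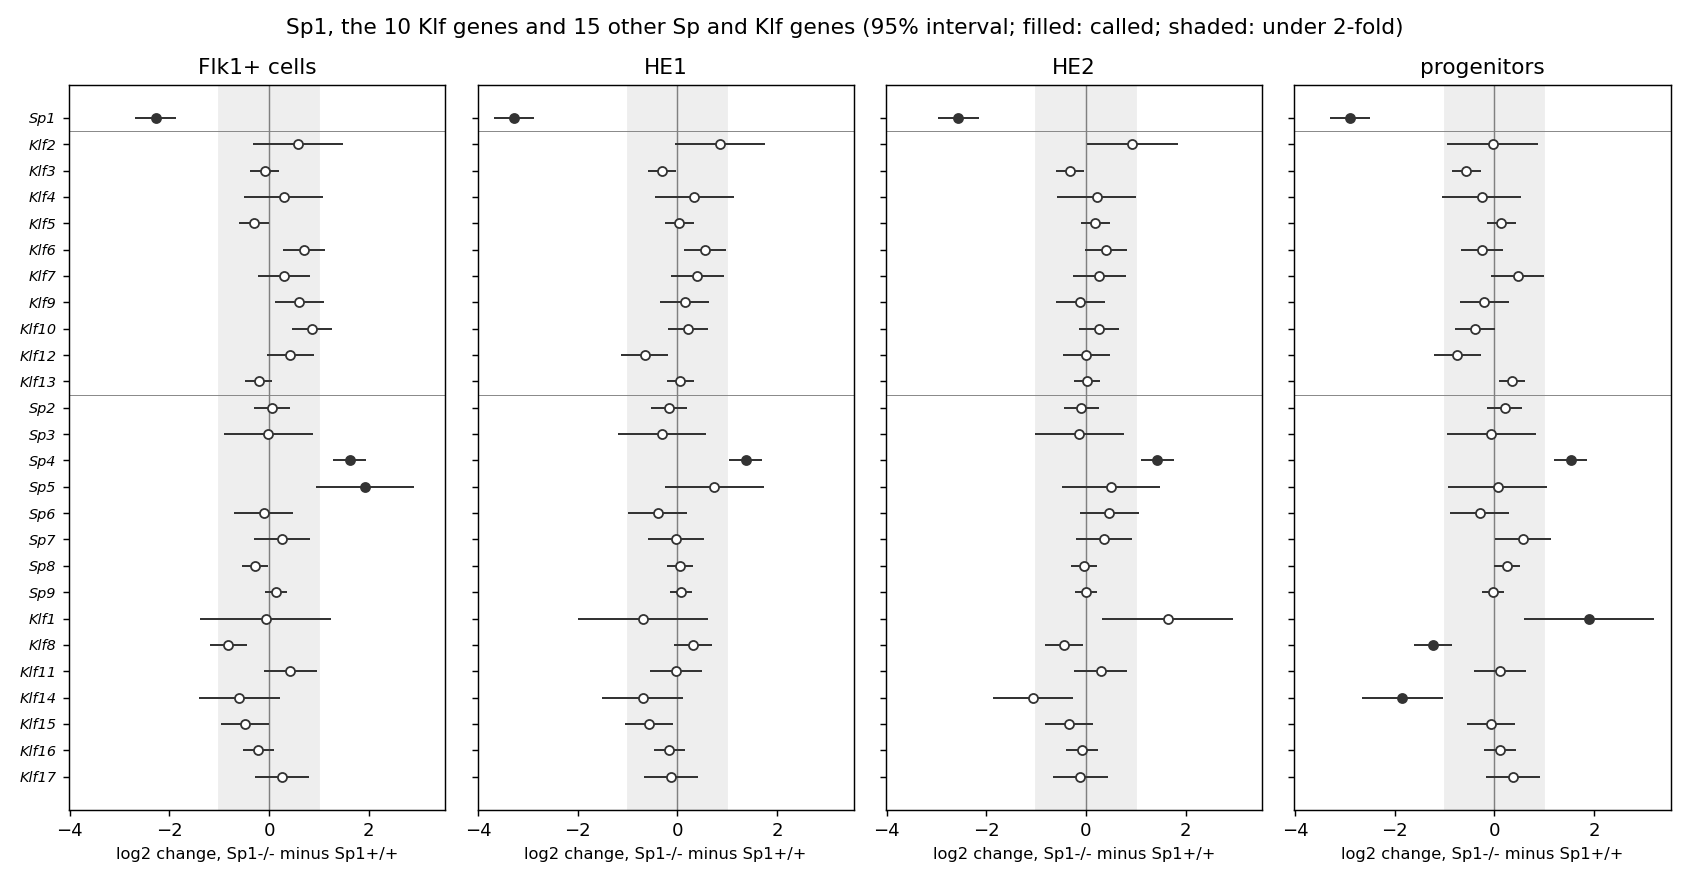
Log2 change in Sp1-/- against Sp1+/+ cells (x axis) of Sp1, of the 10 Klf genes and of 15 other Sp and Klf genes, separated by horizontal lines, in each population. Bars are 95% intervals from limma, filled symbols are called and the grey band is under 2-fold: Sp1 lies far left, the 10 Klf genes lie inside the band, and Sp4 lies right of it in all 4 populations.

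Among 15 other Sp and Klf factors, 5 were called between genotypes in at least 1 population. Sp4, a close relative of Sp1, was higher in Sp1-/- cells in all 4, at 3.07-fold in Flk1+ cells, 2.58-fold in HE1, 2.7-fold in HE2 and 2.9-fold in progenitors (adjusted p at most 2.59e-04 by limma). Sp5 was 3.80-fold higher in Flk1+ cells, the erythroid factor Klf1 3.73-fold higher in progenitors (adjusted p = 0.0574 by limma), and Klf8 and Klf14 were 2.35-fold and 3.59-fold lower in progenitors. Sp2 and Sp3 differed by 0.31 or less in every population. Of 12 Klf cofactors none was called between genotypes in any population by limma, with an unadjusted p under 0.05 for 3, 7, 3 and 5 of them in the order of the populations, set against the shares of all genes at that threshold given above. Of the 6 Klf2 targets, Vcam1 was called higher in HE1. Vcam1 and Edn1 were called lower in progenitors, where Klf2 itself read nearly alike in both genotypes. The median Sp1-/- difference of the 6 targets was below 0 at every stage, at -0.134 (Flk1+), -0.405 (HE1), -0.465 (HE2) and -1.39 (progenitors). A higher mean was found for 2, 1, 1 and 0 of the 6, in the same order. The list does not separate genes that Klf2 raises from genes that it lowers, so these values give no direction of Klf2 activity.

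The members were also compared with each other and with all other genes by the shape of their levels over the 16 arrays, as Pearson's r, given as a description since the arrays share populations and slides. Klf2 ran close to Klf6 (r = 0.955) and Klf3 (r = 0.908), and Klf3 to Klf6 (r = 0.897). Klf12 ran against Klf2 (r = -0.63) and with Klf5 (r = 0.77). Of all named genes the nearest to Klf2 were Ulk2 (r = 0.98), Jun (r = 0.978) and Denn2b (r = 0.973), and the nearest to Klf6 were Serpina3i (r = 0.964), Rhob and Nfkbia (both r = 0.963). The nearest to Klf3 was Macf1 (r = 0.987), to Klf4 Nhsl2 (r = 0.961), to Klf7 Lgmn (r = 0.941) and to Klf9 Phldb1 (r = 0.945). The nearest to Klf12 were Six2 and Tmeff1 (both r = 0.97), to Klf13 Arf6 (r = 0.958) and to Klf5 Gal3st1 (r = 0.944). The median r of a member with all genes lay between -0.0591 and 0.000144.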

How the data were processed

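Total RNA was labelled with Cy3 and hybridized to 16 Agilent SurePrint mouse arrays (62976 spots, 2 slides). The authors deposited scanner output, with the median intensity of each spot and of its background read by Agilent Feature Extraction (10.7.3.1 in the file headers, 10.7.1.1 in the labels), and a table of log2 values. These deposited log2 values matched normexp background correction with an offset of 50 and quantile normalization of the intensities within 0.005, whereas an offset of 16, which the methods name, left differences of up to 1.63. The larger offset compresses differences of dim probes. No spot was saturated, and 64.9 to 75.1% of spots were well above background on an array; the number of arrays limits the precision.

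Of 59305 non-control spots, spots of 1 probe were averaged to 55681 probes. Probes at log2 6 or more on at least 1 array were kept (55595), and the brightest probe stood for each of 37149 genes, of which 20122 had a symbol, taken through the RefSeq accession. limma 3.58.1 in R 4.3.3 fitted 8 groups, with contrasts for genotype in each population, for each step in each genotype, for the mean genotype difference and for the interaction, and p-values were adjusted by the Benjamini-Hochberg method. Two-sided tests were used. The fit was tested on simulated data with known changes. The members and gene lists were chosen with earlier results of these data known. All 10 members were tested in every comparison, and members not called were not always named. Other Sp and Klf factors were named where called between genotypes, and genes of the cofactor and target lists mainly where they were called beside a called Klf gene; the Klf2 targets called between genotypes and the pluripotency genes were added after their values were seen. For likeness, the 3 genes with the highest r were taken for each member. Some results of the likeness and target lists are not reported here. Alternatives changed the background correction, the scaling, the filter, the probe rule, the arrays in the fit, the threshold and single arrays.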

Additional observations from a re-analysis of the deposited data

Results flagged for a closer look

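The effect of Sp1 genotype on Klf10 differed between populations at an unadjusted p of 0.00304 (F test in limma). The Sp1-/- arrays were higher in Flk1+ cells and the mean was lower in progenitors. The same test gave an unadjusted p of 0.00533 for Klf12, which was higher on average in Sp1-/- Flk1+ cells and lower on both arrays in progenitors. Neither passed an adjusted p of 0.05. With 2 arrays a group, no single array could be tested for standing apart.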

How the results depend on the processing

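Between genotypes, the count of members called was 0 in every population under all alternatives except in progenitors, where it was 1 (Klf12) with an offset of 16 and 1 with the processed signal scaled to its 75th percentile. With an adjusted p of 0.05 and no minimum change the count was 2 in Flk1+ cells, 2 in progenitors and 3 for the mean over populations. The same criterion gave 8 members from Flk1+ cells to HE1 and 0 from HE2 to progenitors in Sp1+/+ cells, 5 from HE1 to HE2 in Sp1-/- cells and 0 for the interaction. An adjusted p of 0.01 with 2-fold gave 2 for the step from HE1 to HE2 in Sp1+/+ cells, 0 for the next step, 1 for HE1 to HE2 in Sp1-/- cells and 0 for the interaction. The processed signal gave 1 for the step from HE1 to HE2 in Sp1+/+ cells, 0 for the next step and 1 for the interaction. A fit of only the arrays compared gave 0 from HE2 to progenitors in Sp1+/+ cells. From HE1 to HE2 it ended the call of Klf2 in Sp1+/+ cells and of Klf4 in Sp1-/- cells and called Klf2 in Sp1-/- cells. The causes were not tested.

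Leaving out 1 array at a time, the count was 0 in every genotype comparison. It was 4 to 5 from Flk1+ cells to HE1, 0 to 4 for HE1 to HE2 and 0 to 1 for the next step in Sp1+/+ cells, 6 to 6, 1 to 6 and 1 to 4 at the same steps in Sp1-/- cells, and 0 to 3 for the interaction. No called value changed sign. Of 1290 values of the genotype differences under the alternatives 26 changed sign, all from a main value of 0.34 or less in size. With scaling to the 75th percentile the median of all genes reached 0.186 in a genotype comparison (HE1), where the main fit gave 0.01.

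The correlation of deviations between arrays with the same replicate number was over 0.1 in 11 of 28 pairs of groups and ranged from -0.174 to 0.503. The highest was between HE1 and HE2 of Sp1+/+ cells, so that these 2 groups may be paired. The replicate number also followed the column of the slide. In the main fit the numbers were not taken to pair the samples. With the replicate number as a block, the replicate block left every count as it was, for example 5 members from Flk1+ cells to HE1 in Sp1+/+ cells and 0 in each genotype comparison. A slide block could not be fitted for the genotype comparisons, since each slide held 1 genotype. Brightness limits Klf12 most, whose probe lay near the lowest values.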
